A study of Homo sapiens with 12 samples.

Results

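The RNA of 2 acute myeloid leukemia cell lines, MOLM13 and OCIAML5 (OCI-AML5), was compared at baseline, in cells carrying a control short hairpin RNA and no knockdown. The comparison used 4 of the 12 libraries of the study, 2 of each line, taken from the count table of the experiment on the paraspeckle protein PSPC1, and it covered every gene that passed a filter on low counts: 16457 of 60648. The other libraries of that experiment carried a hairpin against PSPC1, and a separate OCIAML5 experiment held 2 control libraries and 2 with a hairpin against PU.1 (SPI1). All cells had been infected with lentivirus and then selected with puromycin or sorted for GFP, and the labels do not say which was used for which sample. MOLM13 was grown in RPMI 1640 with 10% fetal bovine serum, and OCIAML5 in α-MEM with 20% serum and 10 ng/mL of human GM-CSF, the granulocyte-macrophage growth factor. Line, medium, serum and GM-CSF therefore differed together and cannot be told apart. Each line stands for itself only, and nothing in the labels says that the 2 libraries of a line came from separate cultures. P-values below therefore set the line difference only against the spread between libraries of the same group, and that spread may be technical. It was estimated over all 8 libraries of the PSPC1 experiment, so the knockdown libraries also entered it, as they did the filter.

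Both lines derive from patients with acute myeloid leukemia, a cancer in which myeloid progenitors divide without completing their maturation. MOLM13 is known for a fusion of KMT2A (MLL) with MLLT3 (AF9), which keeps HOXA genes and their cofactor MEIS1 active, and for an internal tandem duplication in the receptor FLT3. OCI-AML5 is known as a line whose growth depends on added growth factor. In normal myelopoiesis, granulocyte precursors make azurophil granule proteases such as elastase, whereas monocytes and dendritic cells present antigen on MHC class II molecules under the control of the coactivator CIITA.

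Total counts were 22757998 and 17526626 in the MOLM13 libraries and 18537630 and 15839380 in the OCIAML5 libraries. Log expression correlated at 0.996 (Pearson, across genes) between the MOLM13 libraries, at 0.995 between the OCIAML5 libraries and at 0.890 to 0.891 between lines; genes are not independent replicates. Levels are given below as CPM, the usual scaling of counts to a common library total, in the first and the second library of a line, with TMM factors and no correction for gene length, so levels are compared between lines and not between genes. Cells were measured in bulk, and fewer cells with a transcript and less of it per cell cannot be told apart. Mitochondrially encoded genes took 9.32% and 9.86% of the counts in MOLM13 and 12.03% and 10.8% in OCIAML5. PTPRC (CD45), the common leukocyte antigen, stood at 248 and 251 CPM in MOLM13 and 396 and 384 CPM in OCIAML5, and CD33, a myeloid surface receptor, at 117 and 127 CPM in MOLM13 and 95.6 and 101 CPM in OCIAML5, so both lines carried these leukocyte and myeloid markers. CD14, the monocyte co-receptor for lipopolysaccharide, had 2 counts over both libraries of each line, and KIT, the stem cell factor receptor, had 8 in MOLM13 and 3 in OCIAML5. Of the marker lists of other lineages, 17 of 21 erythroid, 16 of 20 B lymphocyte, 20 of 27 T and NK lymphocyte and 13 of 15 epithelial and stromal genes were under 1 CPM in both lines. So were 12 of 18 megakaryocyte, 18 of 23 mast cell, basophil and eosinophil and 14 of 27 dendritic cell genes. Other members could be abundant. The erythroid list summed to 1023 and 1036 CPM in MOLM13 and 399 and 397 CPM in OCIAML5. The epithelial and stromal list summed to 102 and 98.5 CPM in MOLM13 and 2.34 and 1.71 CPM in OCIAML5.

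A large share of the transcriptome differed between the lines. By edgeR's quasi-likelihood test with Benjamini-Hochberg adjustment over all genes tested (threshold 0.05), 4932 genes (30%) were higher in MOLM13 and 5048 (30.7%) were lower, together 60.6% of those tested. Against this background, a gene that merely passed the test says little about its group. At a difference of at least 2-fold, 1980 genes (12%) were higher and 2534 (15.4%) lower. At least 16-fold separated 629 higher genes (3.82%) and 891 lower genes (5.41%). The median log2 difference over all genes was -0.00642. The PSPC1 knockdown libraries of the same lines, which enter this contrast only through the filter, the scaling and the shared estimate of spread, gave 62.8% of genes called between lines. Of the 9980 genes called in the controls, 7246 (72.6%) were called in the same direction between the knockdown libraries and 602 (6.03%) in the opposite direction. Among the 1520 genes called and at least 16-fold apart, these numbers were 1445 and 0. Sizes depended on the OCIAML5 controls used. Of 196 genes named here that were called and could also be tested against the OCIAML5 controls from the PU.1 experiment, 183 were called in the same direction, 8 were not called and 5 were called in the opposite direction, and of the 124 above the floor of 3 counts in both lines 57 changed by over 1.5-fold.

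**Figure D1:**
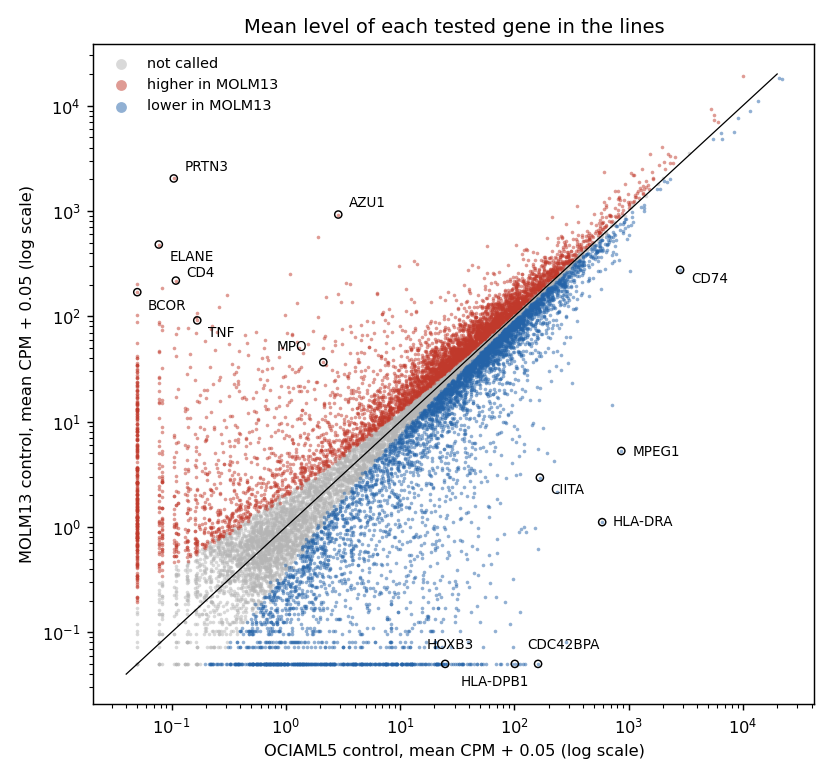
Mean CPM of each tested gene in the OCIAML5 controls (horizontal axis) and the MOLM13 controls (vertical axis), both log scales with 0.05 added, coloured by the test's call; the line marks equal levels. The rows of points at the left and lower edges are genes with few or no counts in OCIAML5 or MOLM13, with PRTN3 and BCOR at the left and HLA-DPB1 and CDC42BPA at the bottom.

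Lists whose shares stood far from the background included the MHC class II genes (13 of 17 tested lower), the azurophil granule genes (16 of 18 higher), the clustered protocadherins (13 of 19 lower) and the cytosolic ribosomal proteins (37 of 38 higher, by small amounts). A low member that passed the filter through its high line alone had to differ, so these counts describe the members tested and not whole lists. For the protocadherins the summed level ran the other way, at 38.5 and 39.5 CPM in MOLM13 and 13.4 and 14.5 CPM in OCIAML5. Their median log2 difference was -4.95, and -2.40 with genes at the floor set to their bound. Against the OCIAML5 controls from the PU.1 experiment 9 could be tested, of which 5 were lower and 2 higher. All list counts below are to be read beside the shares over all genes tested, 30% higher and 30.7% lower. The MHC class II and azurophil lists involved some of the largest differences in the data, and they are described first.

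**Figure D2:**
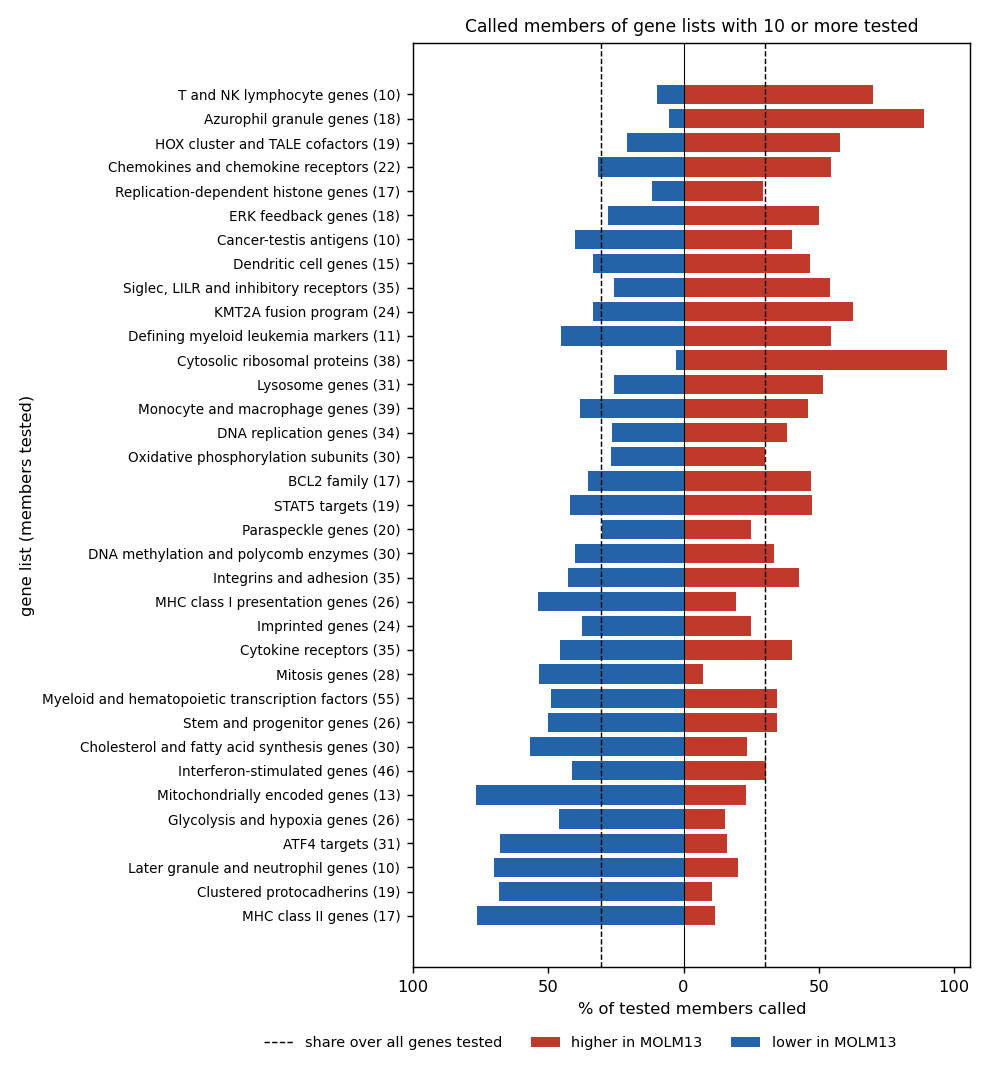
Share of tested members of gene lists that were called higher (red, to the right) or lower (blue, to the left) in MOLM13 than in OCIAML5, for lists with at least 10 members tested, ordered by their median log2 difference; dashed lines mark the shares over all genes tested, 30% and 30.7%. MHC class II genes stand at the bottom with 13 of 17 lower, and ribosomal proteins have the largest share higher with 37 of 38.

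MHC class II molecules present peptides to helper T cells, and their genes share a promoter element set (S, X and Y boxes) on which the RFX complex, NF-Y and CIITA assemble. These class II promoters are shown because their genes were silent or nearly so in MOLM13, with capitals marking ATTGG or its complement CCAAT, the core of the Y box that NF-Y binds. Each line gives the 150 bases before the gene's start in the RefSeq promoter table, 5′ to 3′ on the gene's strand (GRCh38.p14).
HLA-DPB1 (chr6:33075840-33075989, plus strand): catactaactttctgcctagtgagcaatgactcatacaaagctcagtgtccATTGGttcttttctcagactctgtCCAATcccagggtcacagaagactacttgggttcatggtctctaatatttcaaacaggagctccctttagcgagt
HLA-DOA (chr6:33009592-33009741, minus strand): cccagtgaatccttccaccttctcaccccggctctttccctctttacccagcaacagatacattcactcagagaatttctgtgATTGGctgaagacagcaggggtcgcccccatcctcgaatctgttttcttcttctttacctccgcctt
HLA-DMA (chr6:32953098-32953247, minus strand): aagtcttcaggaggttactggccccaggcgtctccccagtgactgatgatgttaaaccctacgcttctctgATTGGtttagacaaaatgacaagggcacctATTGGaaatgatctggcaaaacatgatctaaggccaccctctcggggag
Searched on both strands, ATTGG was present in the 150-base window of 10 of the 11 class II genes with a promoter in the table, of 12 looked for, and in 27.3% of the 10754 tested genes that had one. A match is a description of the letters and not of a bound site.

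CIITA, the class II coactivator, stood at 2.97 and 2.81 CPM in MOLM13 and 170.2 and 164 CPM in OCIAML5, a 57.6-fold lower level in MOLM13 (log2 difference -5.85 ± 0.11 SE, adjusted p = 2.56e-40). HLA-DRA, the alpha chain of HLA-DR, stood at 0.685 and 1.43 CPM in MOLM13 and 561 and 614 CPM in OCIAML5, 577-fold lower (log2 -9.17 ± 0.1003, adjusted p = 3.43e-51). The libraries of the lines did not overlap for either gene, which was true of 78.8% of all genes tested. HLA-DPB1, the HLA-DP beta chain, had no count in MOLM13 and 97.9 and 104 CPM in OCIAML5. Set against a floor of 3 counts over both libraries of a line, it was at least 1297-fold lower, and HLA-DPA1, its alpha chain partner, at least 3656-fold lower (0 and 0.0597 CPM in MOLM13 and 281 and 288 CPM in OCIAML5). HLA-DOA, which modulates peptide loading, had no count in MOLM13 and 13.7 and 11.6 CPM in OCIAML5. HLA-DMA, the loading chaperone, stood at 0.594 and 0.299 CPM in MOLM13 and 38.5 and 38.7 CPM in OCIAML5. Genes of class II presentation were therefore low together in MOLM13, from the coactivator to the chains.

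CD74, the invariant chain that guides class II molecules, remained abundant in MOLM13 at 279 and 273 CPM against 2806 and 2847 CPM in OCIAML5, 10.2-fold lower (log2 -3.36 ± 0.04, adjusted p = 1.88e-49). HLA-DOB went the other way, at 6.39 and 7.65 CPM in MOLM13 and 1.25 and 1.33 CPM in OCIAML5. RFXANK, a subunit of the RFX complex, was also higher in MOLM13 (log2 0.83) and RFX5, its DNA-binding subunit, was lower (log2 -0.96). CTSS, the protease that trims CD74, stood at 103 and 102 CPM in MOLM13 and 97.02 and 101 CPM in OCIAML5 and did not pass the test, nor did RFXAP. The list's median log2 difference was -6.35, and -5.88 with genes at the floor set to their bound, beside -0.00642 over all genes. HLA-DRB and HLA-DQ transcripts vary between people and have near-identical copies, so the values of HLA-DRB1, HLA-DRB5, HLA-DQA1, HLA-DQA2 and HLA-DQB1 depend on how reads matched the reference. The call of HLA-DQB1 was lost against the OCIAML5 controls from the PU.1 experiment (log2 -0.55 in place of -2.83). Against the OCIAML5 control libraries from the PU.1 experiment, a comparison that shares the MOLM13 libraries and called 64.9% of its genes, the log2 difference of CD74 was -2.29 and that of HLA-DRA -7.97.

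In MHC class I presentation, by contrast in size, 5 of 26 genes were higher and 14 lower, with a median log2 difference of -0.14. HLA-F, a non-classical class I gene, stood at 0.0913 and 0.299 CPM in MOLM13 and 6.52 and 5.44 CPM in OCIAML5, and ULBP1, a ligand of the NK receptor NKG2D, at 3.74 and 4.12 CPM in MOLM13 and 62.1 and 59.8 CPM in OCIAML5. TAP2, a subunit of the peptide transporter, was 2.47-fold lower in MOLM13, and PSMB9, an immunoproteasome subunit, 2.26-fold lower.

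Azurophil granules are the first granules that granulocyte precursors fill, with serine proteases and antimicrobial proteins. Of 18 genes tested, 16 were higher in MOLM13, all by at least 2-fold (background 12%), 1 was lower and 1 was not called, with a median log2 difference of 3.66. The promoters of PRTN3 and CTSG are shown because these protease genes separated the lines and both hold GAGGAAG, a purine-rich motif of the ETS type that PU.1 recognises, marked in capitals with its complement CTTCCTC.
PRTN3 (chr19:840849-840998, plus strand): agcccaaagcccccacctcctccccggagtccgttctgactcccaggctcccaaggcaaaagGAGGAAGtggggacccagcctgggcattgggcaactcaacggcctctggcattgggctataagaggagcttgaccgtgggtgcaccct
CTSG (chr14:24576251-24576400, minus strand): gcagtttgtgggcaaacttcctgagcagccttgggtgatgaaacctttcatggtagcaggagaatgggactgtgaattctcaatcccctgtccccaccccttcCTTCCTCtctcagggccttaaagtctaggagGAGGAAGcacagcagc
They were the 2 of 11 azurophil promoters in the table with that motif in the 150-base window on either strand, against 7.46% of all tested promoters. The other azurophil promoters in the table did not hold it. SPI1, the gene of PU.1, stood at 254 and 245 CPM in MOLM13 and 201 and 179.6 CPM in OCIAML5, 1.31-fold higher in MOLM13 (log2 0.39 ± 0.05, adjusted p = 3.40e-09). A link between PU.1 and the granule genes was not tested.

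PRTN3 encodes proteinase 3 and stood at 2067 and 2007 CPM in MOLM13 and 0.109 and 0 CPM in OCIAML5, at least 23275-fold higher in MOLM13. The OCIAML5 controls from the PU.1 experiment had 0.503 and 0.422 CPM of it, for a smaller log2 difference of 12.08, so that bound holds for the PSPC1 controls alone. ELANE, neutrophil elastase, stood at 493 and 468 CPM in MOLM13 and 0.0544 and 0 CPM in OCIAML5, at least 5496-fold higher. AZU1, the antimicrobial azurocidin, stood at 944 and 906 CPM in MOLM13 and 1.79 and 3.86 CPM in OCIAML5, 336-fold higher (log2 8.39 ± 0.09, adjusted p = 3.19e-51). These 3 genes lie side by side on chromosome 19, with PLPPR3 before and CFD after them, between 812488 and 863641 (GRCh38.p14), and all 5 were higher in MOLM13. CFD, complement factor D, stood at 339 and 332 CPM in MOLM13 and 11.3 and 14.9 CPM in OCIAML5, and PLPPR3, a phospholipid phosphatase related protein, at 473 and 463 CPM in MOLM13 and 58.2 and 58.04 CPM in OCIAML5. Members on other chromosomes were also higher in MOLM13. CTSG, cathepsin G, stood at 156 and 148 CPM in MOLM13 and 2.45 and 1.96 CPM in OCIAML5 (68.3-fold higher), RNASE2, an eosinophil-associated ribonuclease, at 315 and 318 CPM in MOLM13 and 14.3 and 13.7 CPM in OCIAML5 (22.6-fold), and LYZ, lysozyme, at 198 and 192 CPM in MOLM13 and 52.6 and 58.9 CPM in OCIAML5 (3.52-fold). MPO, myeloperoxidase, stood at 37.7 and 35.4 CPM in MOLM13 and 2.07 and 2.09 CPM in OCIAML5, with a log2 difference of 4.14 ± 0.21, which was 1.82 against the OCIAML5 controls from the PU.1 experiment. SERPINB1, an inhibitor of these proteases, stood at 88.5 and 96.004 CPM in MOLM13 and 83.3 and 89.4 CPM in OCIAML5 and was not called.

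**Figure D3:**
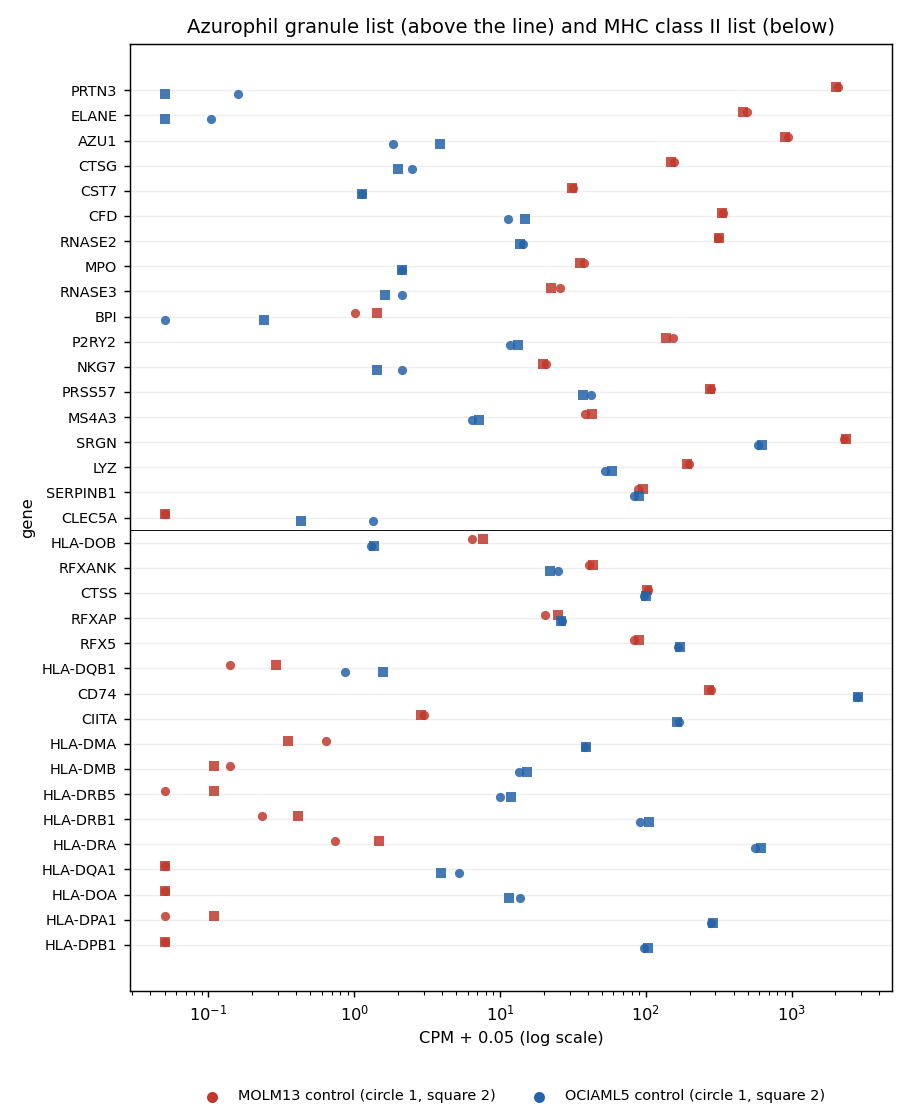
CPM (log scale, 0.05 added) of every tested member of the azurophil granule list (above the line) and the MHC class II list (below it) in the 4 control libraries, each list ordered by its log2 difference. PRTN3 and ELANE sit at the right in MOLM13 and near the left edge in OCIAML5, while HLA-DPA1 and HLA-DPB1 show the reverse.

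Of the genes of later granules and of mature neutrophils, 10 of 29 were tested and 14 had no count in any control library. Of those tested, 2 were higher in MOLM13 and 7 lower, with a median log2 difference of -0.91. This direction was lost against the OCIAML5 controls from the PU.1 experiment, where 4 of 9 were higher and 3 lower, with a median of 0.057. CHI3L1, a secreted chitinase-like protein, stood at 205 and 196 CPM in MOLM13 and 0 and 0 CPM in OCIAML5, at least 2295-fold higher in MOLM13. CYBB, the catalytic subunit of the phagocyte NADPH oxidase, was higher in MOLM13 (35.5 and 34.8 CPM in MOLM13 and 3.04 and 3.41 CPM in OCIAML5). CXCR2, the interleukin-8 receptor, was 3.72-fold lower in MOLM13.

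HOX genes encode positional transcription factors, and leukemias with a KMT2A fusion keep the HOXA group on together with the TALE cofactors MEIS1 and PBX3. Of 19 genes of this group tested, 11 were higher in MOLM13 and 4 lower, with a median log2 difference of 1.44. HOXA9 stood at 66.4 and 67.6 CPM in MOLM13 and 25.1 and 24.3 CPM in OCIAML5, 2.71-fold higher in MOLM13 (log2 1.44 ± 0.09, adjusted p = 2.44e-20). MEIS1 stood at 46.8 and 41.8 CPM in MOLM13 and 5.27 and 4.299 CPM in OCIAML5, 9.21-fold higher (log2 3.203 ± 0.14, adjusted p = 2.42e-25), and PBX3 at 135 and 149 CPM in MOLM13 and 22.99 and 26.4 CPM in OCIAML5, 5.77-fold higher. HOXA9 was thus transcribed in both lines, and its cofactors MEIS1 and PBX3 were higher in MOLM13 as well. HOXA10 stood at 18.1 and 16.4 CPM in MOLM13 and 15.1 and 18.2 CPM in OCIAML5, with overlapping libraries and no call (log2 0.06 ± 0.15, adjusted p = 0.752).

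HOXA13 and HOXA11 set the lines apart: HOXA13 stood at 14.2 and 15.4 CPM in MOLM13 with no count in OCIAML5, at least 167-fold higher, and HOXA11 at 11.5 and 10.6 CPM in MOLM13 and 0.109 and 0.190 CPM in OCIAML5. HOXA3, HOXA5, HOXA6 and HOXA7 were also higher in MOLM13, at log2 differences of 2.48, 1.88, 2.99 and 1.495, while HOXA2 and HOXA4 were not called. In the HOXB cluster the order turned. HOXB3 had no count in MOLM13 and 25.9 and 23.6 CPM in OCIAML5, at least 319.9-fold lower, and HOXB4 had none and 23.5 and 18.6 CPM, at least 274-fold lower. HOXB5 and HOXB6 also had no count in MOLM13. Their neighbour HOXB7 had 1.23 and 1.73 CPM in MOLM13 and none in OCIAML5. The members of the HOXC and HOXD clusters on the list had at most 1 count in any line. MEIS2 was 1.31-fold higher in MOLM13 (adjusted p = 0.0108), a call that was lost without the second MOLM13 library or without the first OCIAML5 library.

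**Figure D4:**
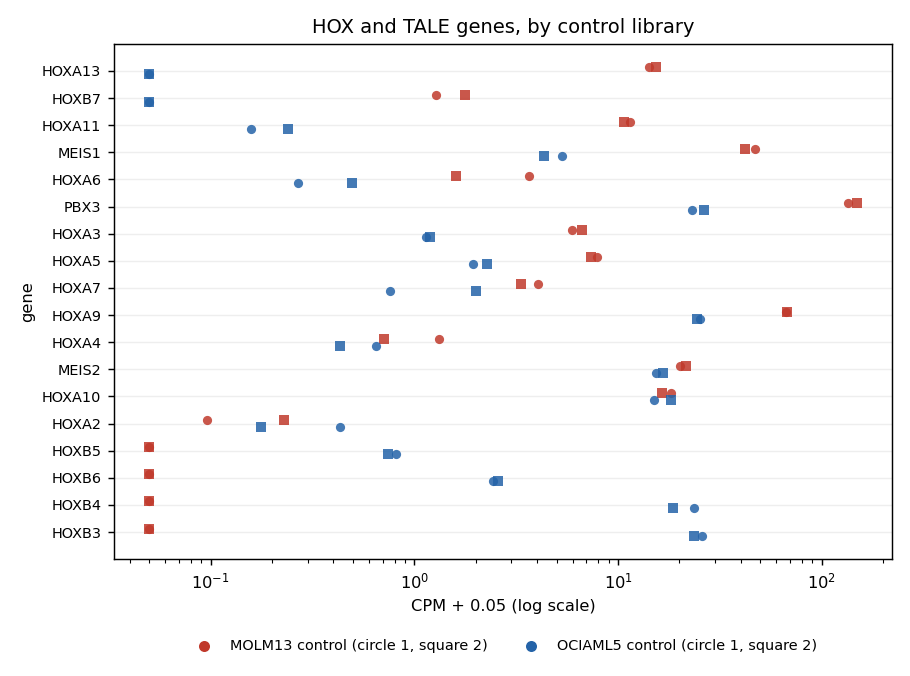
CPM (log scale, 0.05 added) of HOX and TALE genes tested in the 4 control libraries, ordered by log2 difference. HOXA9 is above 20 CPM in both lines, HOXA13 is at the left edge in OCIAML5 only, and HOXB3 to HOXB6 are at the left edge in MOLM13 only.

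Other genes tied to KMT2A fusions were mixed: 15 of 24 were higher in MOLM13 and 8 lower, with a median log2 difference of 0.36. KMT2A itself stood at 76.3 and 71.3 CPM in MOLM13 and 192 and 186 CPM in OCIAML5 (2.55-fold lower in MOLM13, adjusted p = 8.70e-27) and MLLT3 at 12.9 and 12.9 CPM in MOLM13 and 40.6 and 36.3 CPM in OCIAML5 (2.98-fold lower, adjusted p = 6.85e-17). Gene-level counts do not separate fusion from normal transcripts. MEF2C, a transcription factor of this program, stood at 257 and 265 CPM in MOLM13 and 76.1 and 70.2 CPM in OCIAML5 (3.56-fold higher), and CPEB2, a regulator of translation, at 59.3 and 63.8 CPM in MOLM13 and 11.2 and 11.1 CPM in OCIAML5 (5.52-fold higher). JMJD1C, a putative histone demethylase, was 2.79-fold higher. IGF2BP3, an RNA-binding protein of fetal tissues, stood at 28.8 and 28.8 CPM in MOLM13 and 118 and 123 CPM in OCIAML5 and CCNA1, cyclin A1, at 11.1 and 12.01 CPM in MOLM13 and 81.2 and 95.5 CPM in OCIAML5, both lower in MOLM13. The program was therefore higher in MOLM13 for some members and in OCIAML5 for others, with KMT2A and MLLT3 among the latter.

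Cytokine receptors carry the growth signals that differed in the medium. Of 35 tested, 14 were higher in MOLM13 and 16 lower. FLT3, the receptor tyrosine kinase, stood at 323 and 319 CPM in MOLM13 and 234 and 244 CPM in OCIAML5, a 1.34-fold higher level in MOLM13 (log2 0.43 ± 0.05, adjusted p = 1.99e-11). The size depended on the control set used: the OCIAML5 controls from the PU.1 experiment had 62.6 and 64.7 CPM, which gave a log2 difference of 2.31, and the line difference in the PSPC1 knockdown libraries was 2.6998. For the GM-CSF receptor, the alpha chain CSF2RA stood at 39.1 and 36.3 CPM in MOLM13 and 23.6 and 24.03 CPM in OCIAML5 (log2 0.66 ± 0.11; 2.02 against the other OCIAML5 controls), and CSF2RB, the beta chain shared with the IL-3 and IL-5 receptors, at 24.7 and 29.4 CPM in MOLM13 and 66.7 and 62.7 CPM in OCIAML5 (log2 -1.27 ± 0.08). The chains of this receptor thus differed in opposite directions. IL3RA, the IL-3 receptor alpha chain, was 2.19-fold higher in MOLM13, and CSF1R, the macrophage growth factor receptor, 2.45-fold lower. Both chains of the IL-18 receptor were higher in OCIAML5: IL18RAP had no count in MOLM13 and 10.3 and 8.47 CPM in OCIAML5, and IL18R1 stood at 0.0913 and 0.179 CPM in MOLM13 and 9.02 and 7.398 CPM in OCIAML5. IL2RA was lower (0.183 and 0.179 CPM in MOLM13 and 8.48 and 9.42 CPM in OCIAML5) and IL2RB higher (11.8 and 15.4 CPM in MOLM13 and 1.68 and 2.53 CPM in OCIAML5) in MOLM13.

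STAT5 conveys the signals of FLT3 and of the GM-CSF receptor, and its target genes gave no common direction, with 9 of 19 higher in MOLM13 and 8 lower. Against the OCIAML5 controls from the PU.1 experiment, 7 were higher and 10 lower. PIM1, a survival kinase, stood at 54.1 and 56.6 CPM in MOLM13 and 268 and 273 CPM in OCIAML5, 4.89-fold lower in MOLM13 (log2 -2.29 ± 0.06, adjusted p = 5.50e-36). CISH, a feedback inhibitor of cytokine receptors, stood at 51.7 and 45.6 CPM in MOLM13 and 83.5 and 84.3 CPM in OCIAML5, 1.72-fold lower. SOCS2, another feedback inhibitor, stood at 77.4 and 79.6 CPM in MOLM13 and 24.2 and 24.8 CPM in OCIAML5, 3.204-fold higher. BCL6, a transcriptional repressor, was 10.96-fold lower in MOLM13, and CCND3, cyclin D3, was 3.84-fold higher. The feedback genes of ERK signalling were 9 higher and 5 lower of 18, with a median log2 difference of 0.57. With the other OCIAML5 controls 8 of 17 were higher and 4 lower, and the median was -0.019. DUSP6, the ERK phosphatase, stood at 20.6 and 17.1 CPM in MOLM13 and 77.7 and 83.8 CPM in OCIAML5, and SPRED1, a RAS inhibitor, at 8.91 and 6.15 CPM in MOLM13 and 40.5 and 33.95 CPM in OCIAML5, both lower in MOLM13. ETV4, an ETS factor, stood at 34.3 and 31.2 CPM in MOLM13 and 1.304 and 1.33 CPM in OCIAML5, and IER3, an immediate early gene, at 12.01 and 11.9 CPM in MOLM13 and 0.326 and 0.506 CPM in OCIAML5, both higher in MOLM13. Within each pathway, then, individual targets separated the lines in opposite directions.

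Monocyte and macrophage genes were divided as well: 18 of 39 higher, 15 lower, with a median log2 difference of 0.11. Against the OCIAML5 controls from the PU.1 experiment, 24 of 38 were higher and 10 lower, with a median of 0.77. CD4, a T cell co-receptor that monocytes also carry, stood at 214 and 222 CPM in MOLM13 and 0.0544 and 0.0632 CPM in OCIAML5, at least 2483-fold higher in MOLM13. TLR2, a receptor for bacterial lipopeptides, stood at 86.7 and 91.6 CPM in MOLM13 and 0.0544 and 0 CPM in OCIAML5, at least 1013-fold higher, and CX3CR1, the fractalkine receptor, at 16.9 and 17.3 CPM in MOLM13 and 0.380 and 0.379 CPM in OCIAML5. MPEG1, the pore-forming perforin-2 of macrophages, stood at 6.12 and 4.301 CPM in MOLM13 and 871 and 857 CPM in OCIAML5, 162-fold lower in MOLM13 (log2 -7.34 ± 0.08, adjusted p = 5.37e-51); against the 222 and 233 CPM of the other OCIAML5 controls its log2 difference was -5.44. CLEC10A, a lectin of macrophages and dendritic cells, stood at 0.365 and 0.0597 CPM in MOLM13 and 16.3 and 14.8 CPM in OCIAML5. Each line thus had monocyte genes that the other nearly lacked. CD36, a scavenger receptor, stood at 13.7 and 11.2 CPM in MOLM13 and 74.2 and 75.7 CPM in OCIAML5, 5.98-fold lower in MOLM13, but the direction turned against the OCIAML5 controls from the PU.1 experiment, which had 6.22 and 7.02 CPM (log2 0.896). ITGAM (CD11b) was 1.55-fold lower in MOLM13, a call that was lost against those controls (log2 -0.26, adjusted p = 0.0698).

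Among 55 myeloid and hematopoietic transcription factors, 19 were higher in MOLM13 and 27 lower. WT1, a zinc finger factor often raised in leukemia, stood at 74.3 and 67.1 CPM in MOLM13 and 0.272 and 0.126 CPM in OCIAML5, 335-fold higher, and CEBPA, the factor that commits granulocyte-monocyte progenitors, at 233 and 224 CPM in MOLM13 and 55.004 and 53.6 CPM in OCIAML5, 4.21-fold higher. TAL1 and ERG, factors of stem cells and of the erythroid and megakaryocyte lineages, and PAX5, the B cell factor, were at or near 0 in MOLM13: TAL1 stood at 0.0457 and 0 CPM in MOLM13 and 20.98 and 19.7 CPM in OCIAML5, PAX5 at 0.0457 and 0 CPM in MOLM13 and 22.3 and 23.9 CPM in OCIAML5, and ERG had no count in MOLM13 and 6.14 and 5.501 CPM in OCIAML5. IKZF2, Helios, stood at 0.822 and 0.597 CPM in MOLM13 and 73.4 and 67.7 CPM in OCIAML5. MYC, at 602 and 599 CPM in MOLM13 and 581 and 582 CPM in OCIAML5, differed by 0.05 ± 0.04 on the log2 scale (adjusted p = 0.335). CEBPE, a factor of late granulocytes, was 2.61-fold lower in MOLM13. IRF8, a monocyte and dendritic cell factor, stood at 324 and 326 CPM in MOLM13 and 342 and 354 CPM in OCIAML5 (adjusted p = 0.0412; not called without either MOLM13 library or without the second OCIAML5 library), and GATA2, a stem and mast cell factor, at 27.7 and 32.1 CPM in MOLM13 and 16.8 and 16.1 CPM in OCIAML5. Both of the last calls turned against the OCIAML5 controls from the PU.1 experiment, where the log2 difference of IRF8 was 0.796 in place of -0.101 and that of GATA2 -0.504 in place of 0.86.

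Surface molecules of adhesion and immune recognition held large differences in both directions. PECAM1, a junction molecule of endothelium, platelets and leukocytes, stood at 99.6 and 96.5 CPM in MOLM13 and 2.17 and 1.58 CPM in OCIAML5, and CD82, a tetraspanin, at 47.4 and 45.5 CPM in MOLM13 and 0.489 and 0.190 CPM in OCIAML5, both higher in MOLM13. ITGA2, the collagen receptor alpha chain, had no count in MOLM13 and 7.39 and 4.62 CPM in OCIAML5, and ITGA2B, the platelet integrin, stood at 0.274 and 0.299 CPM in MOLM13 and 13.1 and 13.97 CPM in OCIAML5. ITGA4, the alpha chain of VLA-4, had high counts in both lines, at 269 and 271 CPM in MOLM13 and 1039 and 1034 CPM in OCIAML5. Of 35 integrins and adhesion genes, 15 were higher and 15 lower. CD48, a SLAM family ligand, stood at 0.320 and 0.119 CPM in MOLM13 and 37.99 and 42.4 CPM in OCIAML5, and SIGLEC6, a sialic acid receptor, at 1.005 and 0.597 CPM in MOLM13 and 84.7 and 76.9 CPM in OCIAML5, both lower in MOLM13. SLAMF8 stood at 10.05 and 11.5 CPM in MOLM13 and 0.109 and 0.0632 CPM in OCIAML5 and LILRB1, an inhibitory receptor for class I molecules, at 13.5 and 15.4 CPM in MOLM13 and 1.14 and 0.822 CPM in OCIAML5, both higher. AXL, a receptor tyrosine kinase that also marks a dendritic cell subset, stood at 55.8 and 54.01 CPM in MOLM13 and 1.47 and 1.58 CPM in OCIAML5, and CADM1, an adhesion molecule of cross-presenting dendritic cells, had 13.2 and 12.2 CPM in MOLM13 and none in OCIAML5.

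Of 22 tested genes of chemokines and their receptors, 12 were higher in MOLM13 and 7 lower. TNF, an inflammatory cytokine, stood at 91.5 and 91.2 CPM in MOLM13 and 0.109 and 0.126 CPM in OCIAML5, 738-fold higher (log2 9.53 ± 0.204, adjusted p = 9.06e-39), and CXCL10, an interferon-induced chemokine, had 12.6 and 9.74 CPM in MOLM13 and none in OCIAML5. CXCL16 went the other way at 0.502 and 0.418 CPM in MOLM13 and 17.7 and 13.02 CPM in OCIAML5. TNFAIP3 (A20), the NF-kB inhibitor, was among the most abundant genes at least 16-fold apart, at 289 and 308 CPM in MOLM13 and 9.78 and 9.74 CPM in OCIAML5. Interferon-stimulated genes followed no common direction, 14 of 46 higher and 19 lower, beside 30% and 30.7% over all genes tested. CMPK2 stood at 1.69 and 1.37 CPM in MOLM13 and 45.7 and 45.5 CPM in OCIAML5, with RSAD2 (viperin), its neighbour on chromosome 2, at 0.0913 and 0.299 CPM in MOLM13 and 5.49 and 4.55 CPM in OCIAML5 and IFIT5 at 0.502 and 0.299 CPM in MOLM13 and 9.13 and 9.36 CPM in OCIAML5, all lower in MOLM13. IFITM3, a barrier to virus entry, stood at 6.21 and 4.84 CPM in MOLM13 and 0.109 and 0.0632 CPM in OCIAML5 and was higher.

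Stem and progenitor genes were 9 of 26 higher and 13 lower. CD34, the progenitor antigen, had no count in MOLM13 and 1.68 and 2.47 CPM in OCIAML5, at least 26.3-fold lower. CD96, a surface antigen of leukemic stem cells, had no count in MOLM13 and 46.5 and 47.7 CPM in OCIAML5, at least 606-fold lower. DPYSL3, a cytoskeletal protein, stood at 0.913 and 0.896 CPM in MOLM13 and 117 and 112 CPM in OCIAML5, and ANGPT1, angiopoietin 1, at 69.5 and 70.9 CPM in MOLM13 and 0.544 and 0.443 CPM in OCIAML5. CD34, CD96 and DPYSL3 were thus higher in OCIAML5 and ANGPT1 in MOLM13. PRAME, a cancer-testis antigen, had no count in MOLM13 and 11.03 and 11.7 CPM in OCIAML5. The imprinted gene PEG10, derived from a retroelement, had none and 98.4 and 92.1 CPM, at least 1229-fold lower, and its imprinted neighbour SGCE stood at 0.320 and 0.0597 CPM in MOLM13 and 7.55 and 9.93 CPM in OCIAML5.

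Several genes of survival and the cell cycle were compared as well. CDKN2A, the 9p21 cell cycle inhibitor, had no count in either line, and its neighbour MTAP stood at 40.3 and 39.5 CPM in MOLM13 and 95.8 and 93.9 CPM in OCIAML5, 2.37-fold lower in MOLM13. In the BCL2 family, BCL2 stood at 222 and 219.5 CPM in MOLM13 and 331 and 330.2 CPM in OCIAML5, 1.497-fold lower in MOLM13 (adjusted p = 2.29e-15). The death promoter BIK stood at 14.7 and 15.4 CPM in MOLM13 and 0.0544 and 0 CPM in OCIAML5, at least 171-fold higher in MOLM13, BAK1 was 3.87-fold higher and the survival gene BCL2L2 stood at 19.5 and 21.9 CPM in MOLM13 and 1.14 and 1.07 CPM in OCIAML5. BMF, another death promoter, was 3.13-fold lower, though its log2 difference of -1.64 shrank to -0.13 against the other OCIAML5 controls. DNA replication genes were 13 of 34 higher and 9 lower, beside 30% and 30.7% over all genes tested. Mitosis genes were 2 of 28 higher and 15 lower (24 lower against the other OCIAML5 controls). In each of these lists 1 gene was called at 2-fold or more. These were GINS3, a helicase subunit, at 17.6 and 14.8 CPM in MOLM13 and 6.41 and 7.398 CPM in OCIAML5, and UBE2C, a mitotic ubiquitin-conjugating enzyme, at 47.7 and 46.8 CPM in MOLM13 and 20.4 and 23.7 CPM in OCIAML5.

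Ribosomal protein genes differed by a small amount in nearly the same direction: 37 of 38 were higher in MOLM13, 3 of them by 2-fold or more, with a median log2 difference of 0.31, or 0.25 when scaled by library size alone. Against the OCIAML5 controls from the PU.1 experiment, 28 were higher and 2 lower. RPL7 stood at 3445 and 3479 CPM in MOLM13 and 1494 and 1612 CPM in OCIAML5, RPL8 at 4134 and 4052 CPM in MOLM13 and 1867 and 2091 CPM in OCIAML5 and RPS18 at 2223 and 2178 CPM in MOLM13 and 986 and 1197 CPM in OCIAML5. The genes of these proteins have many processed copies in the genome, which could share reads with them. RPL7 and RPL8 lie on chromosome 8 and RPS18 on chromosome 6. The tested protein-coding genes of these chromosomes had median log2 differences of 0.57 and 0.49, described below. The summed level of the 38 genes was 55884 and 55290 CPM in MOLM13 and 39375 and 43204 CPM in OCIAML5. Mitochondrially encoded genes were 3 of 13 higher and 10 lower, all by less than 2-fold. ATF4 targets, which cells raise under amino acid shortage, were 5 of 31 higher and 21 lower with a median log2 difference of -0.33. This order held only for the control set used: against the OCIAML5 controls from the PU.1 experiment, 26 were higher and 2 lower, with a median of 0.72. STC2, a secreted stress glycoprotein, stood at 23.1 and 23.8 CPM in MOLM13 and 86.3 and 93.1 CPM in OCIAML5 and 24.6 and 24.2 CPM in those other controls; DDIT3 (CHOP) stood at 3.15 and 5.197 CPM in MOLM13 and 11.96 and 11.8 CPM in OCIAML5 and 2.87 and 3.22 CPM in them. Of glycolysis genes 12 of 26 were lower and 4 higher, and of cholesterol and fatty acid synthesis genes 17 of 30 were lower and 7 higher. Over all genes tested, 30.7% were lower and 30% higher.

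PSPC1, the gene that the experiment targets, stood at 130.2 and 135 CPM in MOLM13 and 99.1 and 98.8 CPM in OCIAML5 in these controls, 1.34-fold higher in MOLM13 (log2 0.42 ± 0.06, adjusted p = 6.25e-08). NEAT1, the long RNA that scaffolds paraspeckles, stood at 175 and 179.9 CPM in MOLM13 and 211 and 199 CPM in OCIAML5, 1.16-fold lower, a call that was lost against the OCIAML5 controls from the PU.1 experiment (log2 -0.03, adjusted p = 0.594). Over 20 paraspeckle genes 5 were higher and 6 lower, beside 30% and 30.7% of all genes tested. Of these 20, 1 differed by 2-fold, ZC3H6 at 5.16 and 6.57 CPM in MOLM13 and 30.6 and 23.2 CPM in OCIAML5. NDC1, a nuclear pore protein, differed by 0.02 ± 0.06 on the log2 scale (adjusted p = 0.801). Among DNA methylation and polycomb enzymes 10 of 30 were higher and 12 lower, again beside 30% and 30.7% of all genes tested. BMI1, a polycomb subunit, stood at 144 and 153 CPM in MOLM13 and 57.1 and 58.4 CPM in OCIAML5, and DNMT3B, a DNA methyltransferase, at 29.3 and 31.1 CPM in MOLM13 and 14.5 and 10.2 CPM in OCIAML5, both higher in MOLM13. KDM6A, the X-linked histone H3 lysine 27 demethylase, stood at 41.97 and 41.6 CPM in MOLM13 and 7.28 and 6.26 CPM in OCIAML5, 6.14-fold higher in MOLM13, but the OCIAML5 controls from the PU.1 experiment had 36.003 and 32.8 CPM, which left a log2 difference of 0.26 (adjusted p = 0.00974).

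Some genes with many counts in a line had almost none in the other. At least 5 CPM in MOLM13 with no more than 3 counts in OCIAML5 was found for 153 genes, 121 of them protein-coding, and the reverse for 232 genes, 202 of them protein-coding. Of the 153, 151 were also under 1 CPM in both OCIAML5 knockdown libraries and all 153 were under 1 CPM in both OCIAML5 controls from the PU.1 experiment. Of the 232, 231 were under 1 CPM in both MOLM13 knockdown libraries. Low or absent counts were thus found again in separate libraries of a line, including those of a separate experiment for OCIAML5.

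BCOR, an X-linked corepressor that works with BCL6 and polycomb (chromosome X, 40051246 to 40177277), stood at 169 and 169 CPM in MOLM13 and 0 and 0 CPM in OCIAML5, at least 1932-fold higher in MOLM13 (adjusted p = 9.77e-43). Others absent from OCIAML5 were ST14, a membrane serine protease (98.6 and 105 CPM in MOLM13), LTBR, the lymphotoxin beta receptor (89.8 and 87.999), INAVA (55.4 and 55.3), the homeobox gene HMX3 (42.7 and 40.7), TGM5, a transglutaminase (41.8 and 38.5), and HENMT1, a small RNA methyltransferase (40.6 and 39.1). SDC2, a heparan sulfate proteoglycan, stood at 252 and 250.3 CPM in MOLM13 and 0.815 and 1.26 CPM in OCIAML5, and PPP1R27, a regulator of protein phosphatase 1, at 572 and 568 CPM in MOLM13 and 2.83 and 0.885 CPM in OCIAML5. In the other direction, CDC42BPA, a kinase under CDC42 (chromosome 1, 226989858 to 227318492), stood at 0 and 0 CPM in MOLM13 and 162 and 161 CPM in OCIAML5, at least 2078-fold lower in MOLM13. PTPRG, a receptor tyrosine phosphatase (129 and 118 CPM in OCIAML5), PROSER1 (121 and 119), CDC42EP1, a CDC42 effector (107 and 107), ADD2, a membrane skeleton protein (86.04 and 85.9), and the zinc finger gene ZNF141 (111 and 111) also had no count in MOLM13. LSP1, a leukocyte actin-binding protein, stood at 1.51 and 2.69 CPM in MOLM13 and 237 and 240.3 CPM in OCIAML5, TRIO, a guanine exchange factor, at 4.89 and 5.02 CPM in MOLM13 and 202 and 187 CPM in OCIAML5, and AFDN, afadin, at 8.17 and 9.2001 CPM in MOLM13 and 187 and 168 CPM in OCIAML5. The uncharacterised AL713998.1 stood at 13.97 and 14.4 CPM in MOLM13 and 765 and 655 CPM in OCIAML5, and RPS2P5, a processed copy of RPS2 that can share reads with its parent, at 3.88 and 4.54 CPM in MOLM13 and 226 and 221 CPM in OCIAML5.

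Some large differences lay in neighbouring genes. Runs of at least 4 neighbouring tested protein-coding genes, all called in the same direction and at least 4-fold, numbered 19, with 96 genes. Of these runs, 3 were higher in MOLM13 and 16 lower. Untested genes between members were skipped. A gene that passed the filter through its high line alone had to differ. Over all genes tested, 12% were higher and 15.4% lower by at least 2-fold, and 3.82% and 5.41% by at least 16-fold. The number of runs that these shares alone would give was not estimated, so grouping along the genome was not tested. The higher runs were the azurophil genes on chromosome 19, LTA, TNF, LTB, LST1, NCR3 and AIF1 in the class III region of the MHC (chromosome 6, 31560610 to 31617015), and TREML1, TREM2, TREML2 and TREM1 (chromosome 6, 41149260 to 41286682). TREM2, a lipid receptor of macrophages, had 38.95 and 33.6 CPM in MOLM13 and none in OCIAML5, and LST1, a leukocyte transcript, stood at 102 and 108 CPM in MOLM13 and 6.96 and 6.77 CPM in OCIAML5. HLA-DRA to HLA-DQA2 (32439887 to 32747198) formed a lower run, so that the same chromosome arm held TNF and LST1 higher in MOLM13 and the class II genes lower. The call of HLA-DQB1 in this run was lost against the OCIAML5 controls from the PU.1 experiment (log2 -0.55 in place of -2.83). The values of its HLA-DRB and HLA-DQ members depend on how reads matched the reference.

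Of the 16 lower runs, 5 with 32 genes were clusters of zinc finger genes on chromosome 19, whose KRAB zinc finger proteins repress retroelements, and another was the zinc finger group ZNF197, ZNF35, ZNF502 and ZNF501 on chromosome 3. The longest reached from ZNF14 to ZNF85 (19710472 to 20950697) with 10 genes, and the next from ZNF577 to ZNF841 (51804442 to 52095765) with 8. The promoters of ZNF43 and ZNF93, the zinc finger genes with the largest differences in these clusters, are shown because they resemble each other, with 128 of 154 aligned columns identical (83.1%), and capitals mark ATTGG or its complement CCAAT. The start that the table gives for ZNF43 lies inside the gene's span in the annotation (chromosome 19, 21804946 to 21852065), not at its outer end.
ZNF43 (chr19:21836183-21836332, minus strand): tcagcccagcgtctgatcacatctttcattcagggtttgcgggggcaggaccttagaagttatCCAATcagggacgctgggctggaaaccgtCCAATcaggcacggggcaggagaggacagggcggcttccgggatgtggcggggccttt
ZNF93 (chr19:19900796-19900945, plus strand): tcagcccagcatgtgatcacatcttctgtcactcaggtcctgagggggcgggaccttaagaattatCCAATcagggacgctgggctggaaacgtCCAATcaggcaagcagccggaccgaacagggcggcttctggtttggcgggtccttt
ATTGG was present in 15 of the 26 promoters of these 32 genes that the table held, against 27.3% of all. Promoters that resemble each other can share the motif and are not independent. Zinc finger genes outside these runs were not counted for it, so the share may belong to the family and not to the runs. ZNF43 had no count in MOLM13 and 73.2 and 78.5 CPM in OCIAML5, at least 975-fold lower, and ZNF93 had none and 74.9 and 73.5 CPM, at least 956-fold lower. ZNF91, their neighbour and a large member of the family, stood at 0.274 and 0.0597 CPM in MOLM13 and 62.6 and 49.001 CPM in OCIAML5. Near-identical family members can share reads, which makes single values less certain than the groups. Counted by name, after the runs had been seen, 123 of 222 tested zinc finger genes of chromosome 19 were lower in MOLM13 and 46 higher (median log2 difference -0.61), whereas of the other 745 coding genes of the chromosome 87 were lower and 455 higher (median 0.43). At least 16-fold lower were 66 of the 222 and 11 of the 745. The 32 genes of the runs are among the 222 and were lower by the rule that found them. Part of this contrast was therefore fixed in advance. On other chromosomes 95 of 243 zinc finger genes were lower and 60 higher.

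Other lower runs held HOXB3 to HOXB6 on chromosome 17, 2 groups of clustered protocadherins on chromosome 5, TRIM58 with olfactory receptor genes on chromosome 1, TRMT9B, DLC1, MSR1 and MICU3 on chromosome 8, the lectins CLEC12A, CLEC1B, CLEC7A and OLR1 on chromosome 12, CXCL16 with ZMYND15, VMO1 and GLTPD2 on chromosome 17, and TCEAL9, BEX3, TCEAL4 and TCEAL1 on the X chromosome. TRIM58, a ubiquitin ligase of red cell precursors, had no count in MOLM13 and 52.8 and 52.5 CPM in OCIAML5. TCEAL4 had none and 22.01 and 23.9 CPM. Most protocadherin values were low, with 48 of 52 genes under 1 CPM in both lines. PCDHGC3, 1 of the 2 that were called higher, stood at 32.01 and 33.6 CPM in MOLM13 and 0 and 0.190 CPM in OCIAML5. The calls of LTA, TREML1, VMO1 and GLTPD2, all low in count, were each lost without 1 or another single library, so the runs with these genes depend on it. The call of CLEC7A was lost against the OCIAML5 controls from the PU.1 experiment (log2 -0.64 in place of -4.48). The exons that protocadherin genes of a cluster share make their counts uncertain.

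The genes of some chromosomes had medians above 0. Over tested protein-coding genes, the median log2 difference was 0.57 on chromosome 8 (287 of 426 genes higher and 80 lower), 0.50 on chromosome 13 (147 of 215 and 41), 0.49 on chromosome 6 (390 of 646 and 122), 0.31 on chromosome 19 (501 of 967 and 210) and 0.25 on chromosome 20 (160 of 336 and 70). On the other chromosomes it lay between -0.17 and 0.01. In 376 windows of 25 neighbouring genes at 5 CPM or more, 47 had a median above 0.4, 46 of them on these 5 chromosomes, and 12 had a median below -0.4, 11 of them on chromosomes 1 and 5 (0.4 was chosen after the values had been seen). The 14 windows of chromosome 8 all had medians from 0.21 to 0.95, the 7 of chromosome 13 from 0.31 to 0.70 and the 19 of chromosome 6 from 0.16 to 0.73. Those of chromosome 19 ranged from -0.62 to 0.81. On chromosome 20 the windows nearest its start had medians from 0.52 to 0.84 and the others from -0.19 to 0.18. Between positions 119711934 and 171742065 of chromosome 1, 156 of 200 genes were lower in MOLM13 and 25 higher. Between positions 196868 and 43557411 of chromosome 5, 58 of 75 were lower and 8 higher. Over all genes tested, 30.7% were lower and 30% higher. The bounds of both parts were also chosen after the values had been seen, around low windows, so an excess of lower genes was built in. In the PSPC1 knockdown libraries the window medians of that part of chromosome 1 lay between -0.83 and -0.53 and those of chromosome 8 between 0.17 and 0.75. Copy number was not analysed here.

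**Figure D5:**
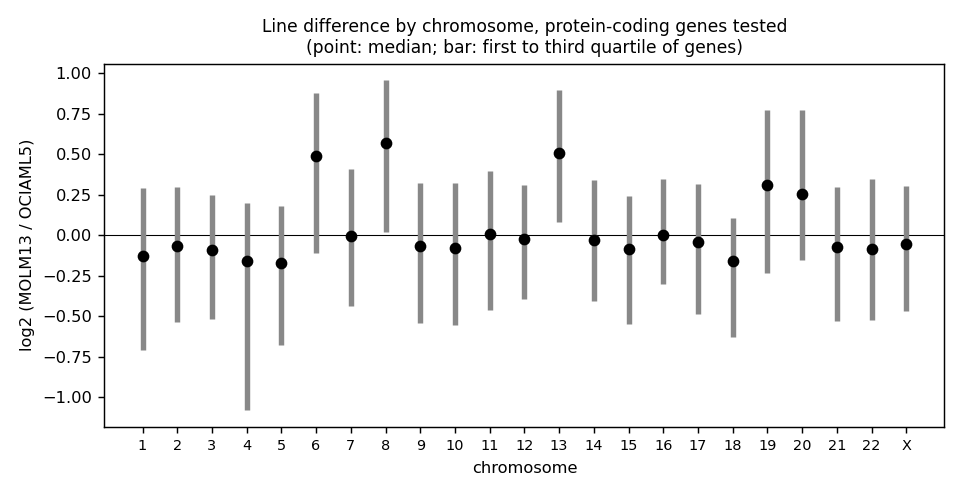
Median log2 difference (MOLM13 over OCIAML5) of tested protein-coding genes by chromosome (points), with bars from the first to the third quartile of genes. Chromosomes 6, 8, 13, 19 and 20 have medians between 0.25 and 0.57, and the others lie close to 0.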

How the data were processed

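Messenger RNA libraries were made with a stranded kit, per the labels' protocols. The authors deposited raw counts per gene, one table per experiment. Per the submitters' processing notes, Trim Galore 0.6.7, STAR 2.7.10a, HTSeq 2.0.2, DESeq2 1.36.0 and the builds GRCh38 and hg38 were used. Neither the annotation nor the strandedness used for counting is given in the sources used here, so overlapping or antisense genes may share counts, as may near-identical copies. From the deposited counts, genes were kept by filterByExpr, scaled by TMM and tested with edgeR 4.0.16 (R 4.3.3, quasi-likelihood F test, limma 3.58.1) in the 8 libraries of the PSPC1 table as 4 groups, with 4 residual degrees of freedom, for MOLM13 control minus OCIAML5 control. P-values were adjusted over all genes tested (Benjamini-Hochberg), and a gene was called at an adjusted p below 0.05. The standard error of a log2 difference was its size divided by the square root of F. Depth was 15839380 to 22757998 counts per control library, and a gene with no more than 3 counts over both libraries of a line (0.0776 CPM in MOLM13, 0.0877 CPM in OCIAML5) was set to 3 counts for a lower bound of its fold, which covers counting error only. The variance between the libraries of a line was 3.08 (MOLM13) and 4.99 (OCIAML5) times that of counting alone. The scripts were tested on simulated data.

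Groups came from sample titles. Gene lists, their members and the tests were chosen with earlier results of these data known. Named genes were a fixed set of 38 lineage and signalling genes, the 10 largest called differences each way at 5 CPM or more with libraries not overlapping, the 8 most abundant each way among those at least 16-fold apart, up to 4 per list by size, the HOX list and the members of runs; genes of the Y chromosome, XIST and genes known only by an Ensembl number were left out, and a few genes that the rule names are not reported here. PTPRC, HLA-DMA, HLA-DOB, RFX5, RFXANK, RFXAP, CTSS, SERPINB1, JMJD1C, IKZF2, ITGA4, ITGB5, CD3D, CD8A and CD9 were named outside that rule after their values had been seen. Lists are described by counts and medians, with no set test. Gene positions and promoters are RefSeq's (GRCh38.p14), matched by symbol for 84.6% of tested genes. Figures were drawn with matplotlib 3.10.9. Alternatives were DESeq2 1.42.0, other scalings and filters, the control libraries alone, a replicate block, other thresholds, each library left out and the OCIAML5 controls from the PU.1 experiment, in a fit of the 6 control libraries.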

Additional observations from a re-analysis of the deposited data

Results flagged for a closer look

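The difference between the lines was not the same in the PSPC1 knockdown libraries as in the controls for 24 of the 35 tested genes of the set of 38, by the interaction term of the edgeR fit (adjusted p below 0.05), a term that was called for 30.5% of all genes tested. Values are the line difference in knockdown libraries minus that in controls, on the log2 scale, with the control difference described above. Cytokine signalling genes had some of the largest terms. FLT3 changed by 2.27 (line difference 0.43 in controls and 2.6998 in knockdown libraries), CSF2RA by 1.69, CSF1R by 0.39, CSF2RB by -0.33 and IL3RA by -0.55. Among STAT5 targets, PIM1 changed by -2.26 (-2.29 and -4.55), CISH by -1.35 and SOCS2 by -1.01. For the class II coactivator CIITA the term was 1.79 (-5.85 and -4.06) and for CD74 0.56.

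Among transcription factors, the term was 1.94 for IRF8 (-0.101 and 1.84), -2.25 for GATA2 (0.86 and -1.395), -1.43 for CEBPE, -0.45 for CEBPA, -0.37 for MYC, -0.28 for MEF2C and 0.31 for SPI1. IRF8 and GATA2 thus had opposite line differences in the 2 conditions. For the granule genes it was -1.62 for MPO (4.14 and 2.52) and 0.72 for LYZ, both higher in MOLM13 in both conditions. Other terms were -0.72 for MLLT3, -0.66 for ITGAM, -0.28 for NDC1 and 0.58 for NEAT1.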

How the results depend on the processing

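The numbers of genes called higher and lower, 4932 and 5048, were 4383 and 4642 with DESeq2, 4852 and 5130 with RLE scaling, 4486 and 5515 with library size alone, 4921 and 4983 with no filter beyond a count above 0, 4753 and 4838 with 1 CPM in at least 2 libraries, 4768 and 4820 from the 4 control libraries alone, 4178 and 4325 at an adjusted p of 0.01, 5014 and 5335 with the OCIAML5 controls from the PU.1 experiment, and 1980 and 2534 with a minimum of 2-fold. Without each library in turn they ranged from 4400 to 4565 higher and from 4454 to 4799 lower. Of the 9980 calls, 8531 to 9900 were kept in the same direction under the settings that used the same controls, with none called in the opposite direction, and 7621 were kept and 406 called in the opposite direction with the controls from the PU.1 experiment. Scaling moved the median of all genes by at most 0.0542 (log2). Same-numbered libraries of the lines did not deviate together (correlation -0.0104 over 10487 genes, 1 pair of groups), so the numbers do not pair them; with a replicate block, 4855 genes were higher and 4962 lower, and among the genes named here the call of IRF8 was lost. With the controls from the PU.1 experiment the log2 difference turned sign for CD36 (0.90), CHAC1 (4.67), DDIT3 (0.41), GATA2 (-0.50), IRF8 (0.80), LAMP5 (0.31), MYC (-0.036), NDC1 (-0.037), RFXAP (0.22), SERPINB1 (-0.86) and SLC7A11 (2.36). With library size alone it turned for MYC (-0.00819) and NDC1 (-0.037), and for HOXA10, which was not called, it ranged from -0.074 to 0.20 without each library in turn, below 0 without the first MOLM13 or the first OCIAML5 library. The cause was not tested. Genes at the floor numbered 342 in OCIAML5 and 471 in MOLM13 at 1 CPM or more in the other line, and 102 and 147 at 10 CPM or more. Runs of at least 3 genes numbered 72. With 2 libraries a line, small differences and genes of a few counts are the least certain.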

Other observations

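The OCIAML5 controls of the 2 experiments differed from each other in 6231 of 15950 genes (39.1%, edgeR quasi-likelihood test on the 6 control libraries), so the line difference depends on which OCIAML5 controls are used for some genes. Depth was 33373599 and 39716519 counts in the controls from the PU.1 experiment against 18537630 and 15839380 in those of the PSPC1 experiment. The labels give both sets the same line, medium and control treatment.

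Amino acid stress genes stood apart between the sets. CHAC1, a glutathione-degrading enzyme, stood at 34.3 and 31.9 CPM in the OCIAML5 controls of the PSPC1 experiment and 0.563 and 0.793 CPM in those of the PU.1 experiment, with 16.1 and 19.7 CPM in MOLM13. SLC7A11, the cystine transporter, stood at 58.9 and 56.2 CPM and 8.79 and 10.98 CPM, with 48.6 and 55.02 CPM in MOLM13. Surface genes also separated the sets: CD86, a costimulatory ligand, stood at 2.01 and 1.96 and 0.0888 and 0.0496 CPM, with 5.75 and 4.899 CPM in MOLM13, and LAMP5, a membrane protein of plasmacytoid dendritic cells and of leukemias with a KMT2A fusion, at 202 and 196 CPM and 69.8 and 72.1 CPM, with 93.3 and 83.996 CPM in MOLM13. CHAC1, SLC7A11, CD86 and LAMP5 were chosen after their values had been seen.

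Some T cell and platelet genes had low levels in MOLM13. CD3D, a T cell receptor component, stood at 2.92 and 1.31 CPM in MOLM13 and 0 and 0 CPM in OCIAML5, and CD8A at 1.32 and 1.08 CPM in MOLM13 and 0 and 0 CPM in OCIAML5. CD9, a tetraspanin of platelets and other cells, stood at 2.15 and 1.49 CPM in MOLM13 and 0 and 0 CPM in OCIAML5. ITGB5, an integrin beta chain, had a higher level, at 34.1 and 29.5 CPM in MOLM13 and 0.380 and 0.885 CPM in OCIAML5. These genes were also chosen after their values had been seen and do not stand for their lineages. Of 8 megakaryocyte genes tested, 2 were higher in MOLM13 and 3 lower, and the platelet integrin ITGA2B was lower. Of 10 T and NK lymphocyte genes tested, 7 were higher and 1 lower. A member with no count in OCIAML5 had to be higher once tested. The median log2 difference was 4.45, and 2.47 with genes at the floor set to their bound. The whole list summed to 144 and 142 CPM in MOLM13 and 117 and 112 CPM in OCIAML5. The shares over all genes tested were 30% higher and 30.7% lower.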
